A study of Mus musculus with 4 samples.

Results

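The collagen genes of the mouse autosomes all lost gene-body methylation in male germ cells of mice with a germ-cell deletion of Np95. All 42 genes described here had a lower body level in either knockout sample than in either control, as did 99.0% of all gene bodies. The knockouts retained between 49.5% and 59.5% of the control level, with medians from 50.8% to 58.9% by type of collagen. The set holds every autosomal protein-coding gene in the mm10 RefSeq annotation whose symbol is Col, a number, the letter a and a number. That gives 42 of the 20665 autosomal protein-coding genes. All 42 had at least 10 CpGs measured in the gene body, which is the gene without its outer 2000 bp at each end, and 15644 autosomal genes met that condition. Col10a1 lay nearest to that minimum with 27 CpGs, and Col23a1 had the most with 2788. The family was taken up after its body levels in these samples were known, so the body values and calls given here describe it and support no further statement. The X-linked genes Col4a5 and Col4a6 were not analysed here.

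Collagens are triple-helical proteins of the extracellular matrix, and each gene of the family encodes an alpha chain of which trimers are built. Fibrillar collagens form the banded fibrils of skin, bone, cartilage and vessel walls, FACIT collagens (fibril-associated collagens with interrupted triple helices) coat those fibrils, and type IV forms the network of basement membranes. In the testis, basement membrane collagens are made by Sertoli and peritubular cells around the seminiferous tubule. CpG methylation of a gene body is copied to the new DNA strand after each replication by Dnmt1, and Np95 (also named Uhrf1) binds the half-methylated sites and guides it there.

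Both groups came from 21-day-old mice with a floxed Np95 gene, and both carried the floxed alleles. The 2 knockout samples were Np95fl/fl:Stra8-Cre, in which the Stra8 promoter drives Cre in germ cells, and the 2 control samples were Np95fl/fl without Cre. Cells were released from hand-collected tubules and filtered over a mesh of 95 µm, so somatic cells of the tubule may remain. Whether the samples stem from different animals is not labelled, and the p-values therefore cover the spread among these 4 samples alone, which may be technical. Methylation levels of CpG cytosines cannot show the deletion itself, and the deleted gene was not checked at the level of its product here.

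Between 28999710 and 29774194 cytosines had a value per sample, and the 22421484 with a value in all 4 samples (60.2% of those listed) were used. The mean over autosomal cytosines was 38.1% and 38.4% in knockouts, against 69.1% and 72.9% in controls. The reads behind each value are unknown, so no counting interval is given. The germ cell label was checked at the starts of genes that are methylated in somatic tissue and unmethylated in the germline, among them Dazl, Sycp1 and Sycp3. All 10 of these starts were under 20% in controls, with medians of 14.0% in knockouts and 6.33% in controls, and 4 were called higher in knockouts, against 0.363% of all starts under 20% and 0.261% of all starts. Starts of maternally methylated imprinted genes, 6 tested, had medians of 8.67% in knockouts and 4.80% in controls, and 5 of them were under 20% in controls. The exception, Snrpn with 5 CpGs measured, was called lower, with 36.3% and 30.4% in knockouts, against 65.6% and 64.9% in controls. A level between 0% and 100% in bulk DNA cannot tell fewer methylated cells from fewer methylated copies per cell.

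The letters of the promoters show how differently the collagen genes are equipped with CpGs at their starts. RefSeq promoter sequences (GRCm38.p6, the same build as mm10, from 250 bases before to 50 after a start) matched 33 of the 42 genes with 36 starts. As a check of the build, 961 of the 962 cytosines listed in these windows fell on a CG of the RefSeq sequence. Printed here, since they stand for the classes that the starts fall into, are a CpG-dense unmethylated promoter (Col4a1, minus strand, chr8:11312777-11313076), both promoters of Col18a1 on the minus strand (upstream, chr10:77166481-77166780, and downstream, chr10:77113656-77113955), and CpG-poor methylated ones of Col10a1 (plus strand, chr10:34389731-34390030) and Col6a3 (minus strand, chr1:90843922-90844221). Each runs 5′ to 3′ on the gene's strand, and capitals mark every CG.
Col4a1: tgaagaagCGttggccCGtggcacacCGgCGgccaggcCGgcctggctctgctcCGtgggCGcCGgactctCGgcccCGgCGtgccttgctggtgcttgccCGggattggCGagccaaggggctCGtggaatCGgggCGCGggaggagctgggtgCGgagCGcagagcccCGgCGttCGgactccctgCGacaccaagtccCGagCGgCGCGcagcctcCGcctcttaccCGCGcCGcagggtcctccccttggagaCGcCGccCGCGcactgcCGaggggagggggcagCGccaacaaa
Col18a1 upstream: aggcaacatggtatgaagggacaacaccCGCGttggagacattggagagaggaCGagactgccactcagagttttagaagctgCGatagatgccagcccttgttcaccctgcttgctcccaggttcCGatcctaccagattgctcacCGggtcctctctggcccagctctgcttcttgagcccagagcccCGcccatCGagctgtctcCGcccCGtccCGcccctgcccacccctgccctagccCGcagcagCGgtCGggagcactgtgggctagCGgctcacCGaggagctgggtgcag
Col18a1 downstream: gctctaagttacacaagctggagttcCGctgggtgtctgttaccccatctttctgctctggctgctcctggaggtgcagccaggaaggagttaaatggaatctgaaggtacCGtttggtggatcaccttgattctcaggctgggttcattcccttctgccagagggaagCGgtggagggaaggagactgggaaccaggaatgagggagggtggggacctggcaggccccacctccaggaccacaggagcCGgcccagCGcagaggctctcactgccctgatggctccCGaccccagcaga
Col10a1: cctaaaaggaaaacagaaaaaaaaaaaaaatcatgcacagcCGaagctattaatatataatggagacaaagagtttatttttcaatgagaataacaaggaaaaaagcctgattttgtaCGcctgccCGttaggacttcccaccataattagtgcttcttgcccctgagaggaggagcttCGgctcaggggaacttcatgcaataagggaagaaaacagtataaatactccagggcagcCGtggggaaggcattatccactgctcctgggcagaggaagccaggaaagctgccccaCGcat
Col6a3: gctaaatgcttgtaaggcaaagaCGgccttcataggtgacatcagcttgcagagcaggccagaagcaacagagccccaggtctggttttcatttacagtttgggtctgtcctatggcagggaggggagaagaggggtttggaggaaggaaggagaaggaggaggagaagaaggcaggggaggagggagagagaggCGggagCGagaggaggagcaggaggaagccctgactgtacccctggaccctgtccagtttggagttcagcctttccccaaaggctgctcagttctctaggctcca

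The printed promoters fall into unmethylated and methylated ones, and the unmethylated ones hold more CG. The Col4a1 window holds 37 CG and averaged 0.603% and 0.853% in knockouts, against 0.779% and 1.30% in controls. The upstream Col18a1 window holds 16 CG and averaged 1.65% and 1.42% in knockouts, against 1.26% and 0.552% in controls. By contrast the downstream Col18a1 window, with 6 CG, averaged 37.0% and 41.8% in knockouts, against 84.2% and 92.5% in controls, so the starts of a single gene stood in opposite states. Col10a1, whose product is made by hypertrophic chondrocytes, has 6 CG in its window, of which 5 cytosines were measured, at 50.9% and 59.3% in knockouts, against 87.5% and 93.8% in controls. Col6a3, with 3 CG and 4 cytosines measured, had 44.2% and 37.7% in knockouts, against 86.8% and 92.7% in controls.

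Across all 36 promoter windows, 26 were under 20% in controls, with a median of 16 CG (1 to 37). A further 6 were at 80% or more, with a median of 5 CG (3 to 6), and these belonged to Col6a1, Col6a3, Col6a4, Col10a1, Col17a1 and the downstream start of Col18a1. Col20a1 lay between with 1 CG, and 3 windows (Col3a1, Col28a1 and the upstream start of Col9a1) held no CG. The median over all 32851 RefSeq promoters was 7 CG. The letters GGGCGG, searched on both strands and themselves holding a CG, occurred in 20 of the 26 low windows and 1 of the 6 high ones, against 35.7% of all promoters. TATAAA occurred in 2 of 26 and 2 of 6, against 13.6% of all promoters, and CCAAT in 10 of 26 and 2 of 6, against 37.4%. A match describes letters in these windows and no binding.

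Gene bodies were compared as the mean percentage methylation over their cytosines, with limma's moderated test on log2((m + 0.01)/(1 − m + 0.01)) for each level m on a scale of 0 to 1. A region was called when its Benjamini-Hochberg adjusted p over all regions of its kind was under 0.05 and its difference was at least 10 points. All 42 collagen bodies were called lower in knockouts and none higher. The background is as high, since 96.9% of all gene bodies were called lower and 0.0128% higher, so the count by itself says nothing about collagens. Adjusted p-values by limma ran between 2.34e-27 for Col3a1 and 2.36e-13 for Col5a1, and for most bodies they rest on a variance pooled over genes. The exact permutation test of a single value over 2 against 2 samples can give no p under 0.333.

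The mean over the 42 bodies was 42.02% and 42.3% in the knockout samples, against 78.3% and 82.5% in the controls. The median body had 43.3% in knockouts and 84.3% in controls, a median difference of -40.7 points and a median retained share, knockout mean over control mean, of 52.2%. Over all gene bodies the medians were 46.0% in knockouts, 86.9% in controls, -37.8 points and 55.6%. Of the 42 collagens, 38 retained less than the median of all bodies, with Col5a1, Col6a1, Col8a2 and Col10a1 as the exceptions. With the whole gene in place of the trimmed body, all 42 were again called lower, against 89.1% of all genes in that fit, with medians of 40.8% in knockouts and 78.9% in controls.

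The samples of each group differed little beside the loss. Knockout replicates lay a median of 0.720 points apart, at most 3.60 points at Col1a1, and control replicates a median of 4.34 points apart, at most 6.81 points at Col5a2. Control replicate 2 was above control replicate 1 in 41 of 42 bodies, Col10a1 being the exception, as it was in 15279 of all 15644 gene bodies. No collagen body had a knockout sample within the range of the controls, as for 99.0% of all gene bodies in which both knockouts lay below both controls.

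**Figure D1:**
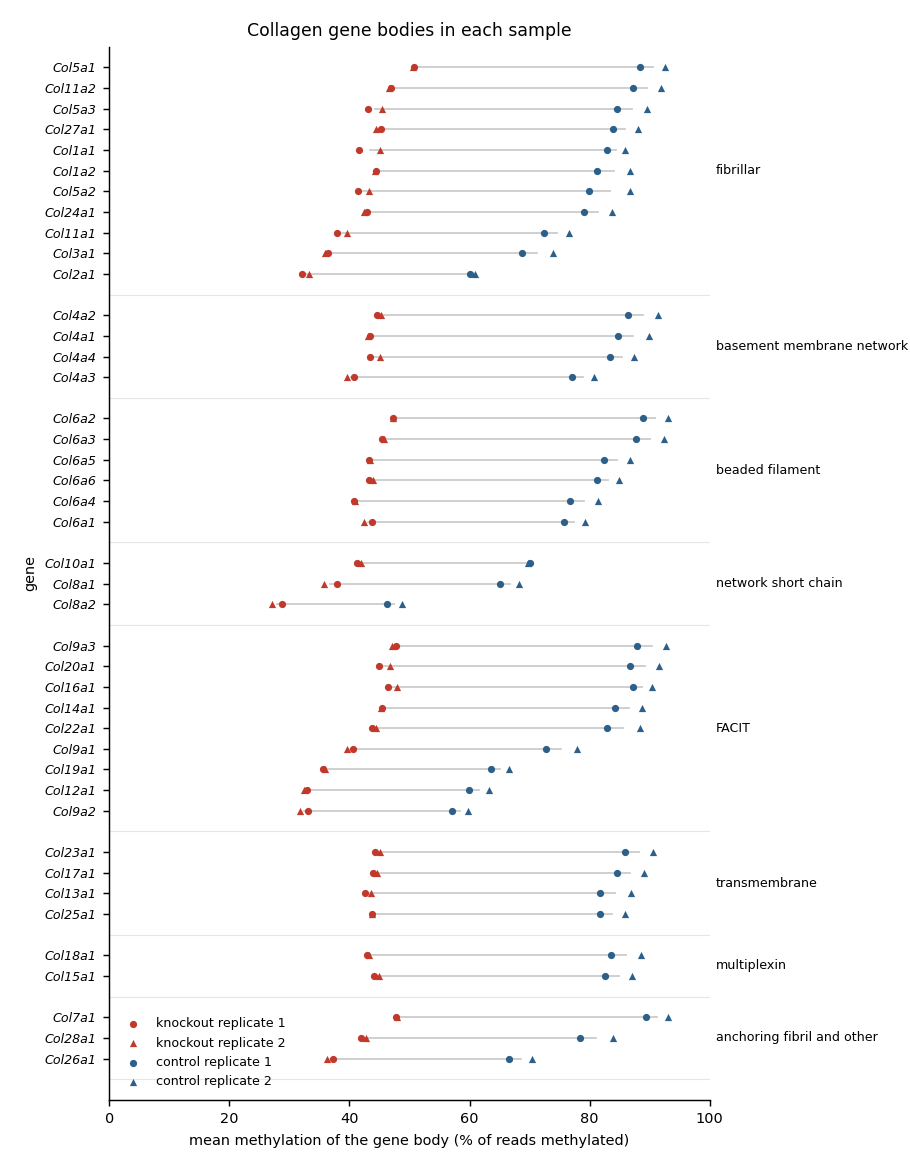
Mean methylation of the 42 collagen gene bodies in percent (horizontal axis), with genes grouped by collagen type, knockout replicates in red and control replicates in blue, and a grey line joining the group means. All red points lie left of the blue points of the same gene, and knockout means stay between 28.0% and 50.7% while control means range from 47.5% to 91.2%.

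The 11 fibrillar genes had medians of 43.4% in knockouts and 84.0% in controls and a median retained share of 52.2%. Col1a1 and Col1a2, the chains of type I collagen of bone and skin, had similar levels. Col1a1 had 41.6% and 45.2% in knockouts, against 82.8% and 85.9% in controls, and Col1a2 had 44.4% and 44.3% in knockouts, against 81.2% and 86.8% in controls. Col5a1, a chain of the type V collagen that starts fibril assembly, kept the most methylation among fibrillar genes, with 50.7% and 50.6% in knockouts, against 88.4% and 92.5% in controls, a retained share of 56.0%. Its knockout level was the highest of all collagen bodies.

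Other fibrillar genes started from lower control levels. Col2a1, the cartilage collagen gene (chr15:97975602-98004724), had 32.0% and 33.2% in knockouts, against 60.1% and 61.0% in controls. Its loss of 27.9 points was among the 5 smallest, and its retained share was 53.9%. Col3a1, the collagen of vessel walls and reticular fibres, had 36.4% and 36.0% in knockouts, against 68.7% and 74.0% in controls and retained 50.8%. Col11a1, a minor chain of cartilage fibrils, had 37.9% and 39.5% in knockouts, against 72.4% and 76.6% in controls, whereas its partner Col11a2 had 46.9% and 46.6% in knockouts, against 87.2% and 91.9% in controls.

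Of the 8 types, basement membrane genes had the lowest median retained share, 50.8% over 4 genes. Col4a1 (chr8:11198423-11312889), which with Col4a2 builds the common type IV trimer, had 43.3% and 43.1% in knockouts, against 84.8% and 89.8% in controls. Its means were 43.2% ± 0.166 in knockouts and 87.3% ± 3.58 in controls (SD, n = 2 each). It fell by 44.1 points and retained 49.5%, the lowest share of the 42 (limma adjusted p = 7.24e-18). On the log2 scale of the test the change was -3.10 ± 0.35 (SE). Col4a2 (chr8:11312805-11449287) had 44.6% and 45.3% in knockouts, against 86.3% and 91.3% in controls, lost 43.9 points and retained 50.6%. Col4a3 and Col4a4, chains of the basement membrane of the kidney glomerulus, retained 50.9% and 51.9%.

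The 6 beaded-filament genes encode type VI collagen, which forms microfilaments beside basement membranes. Col6a3 (chr1:90766860-90844001) had 45.5% and 45.7% in knockouts, against 87.8% and 92.3% in controls, and its loss of 44.4 points was the largest among the collagens. Col6a2 had 47.2% and 47.2% in knockouts, against 88.9% and 93.0% in controls, a loss of 43.7 points. Col6a1 (chr10:76708792-76726044), its neighbour across 85161 bp, started lower in controls and retained more, with 43.7% and 42.5% in knockouts, against 75.6% and 79.3% in controls and a share of 55.6%. Col6a4, Col6a5 and Col6a6, which lie in a row on chromosome 9 with gaps of 27854 and 27823 bp, retained 51.6%, 51.2% and 52.5%.

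The 3 short-chain network genes had the highest median retained share of the 8 types, 58.9%, and the lowest median control level, 66.7%. Col8a2 (chr4:126286794-126314330), a chain of the corneal endothelial basement membrane, had 28.8% and 27.2% in knockouts, against 46.2% and 48.7% in controls. Its means were 28.0% ± 1.15 in knockouts and 47.5% ± 1.77 in controls (SD, n = 2 each). The control level was the lowest of the 42, the loss of 19.5 points the smallest and the retained share 58.9% (limma adjusted p = 1.68e-17). Col10a1 (chr10:34389981-34397085), which lies within the gene Nt5dc1, had 41.3% and 41.9% in knockouts, against 70.0% and 69.7% in controls, a loss of 28.3 points and the highest retained share, 59.5%. It is also the shortest gene, with 7105 bp. Col8a1, the partner of Col8a2, had 37.9% and 35.8% in knockouts, against 65.1% and 68.2% in controls and retained 55.2%.

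Among the 9 FACIT genes, 3 were also in the group of 5 bodies with the lowest control levels. Col9a2, a chain of the type IX collagen on cartilage fibrils, had 33.1% and 31.8% in knockouts, against 57.0% and 59.8% in controls, a loss of 26.0 points and a retained share of 55.5%. Col12a1, a collagen of tendon and ligament, had 32.9% and 32.4% in knockouts, against 59.8% and 63.2% in controls, a loss of 28.8 points. Col19a1 had 35.6% and 35.9% in knockouts, against 63.6% and 66.5% in controls. Col9a3, another type IX chain, was high in controls, with 47.7% and 47.0% in knockouts, against 87.9% and 92.7% in controls. The remaining FACIT bodies, Col14a1, Col16a1, Col20a1, Col22a1 and Col9a1, retained between 51.4% and 53.2%.

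Transmembrane and multiplexin genes had median retained shares of 51.0% over 4 and 51.3% over 2 genes. Col23a1 (chr11:51289679-51583925), a membrane collagen, had 44.3% and 45.0% in knockouts, against 85.9% and 90.5% in controls, a loss of 43.6 points and a share of 50.6%. Col17a1, the hemidesmosome collagen, retained 51.0%, Col13a1 retained 51.1% and Col25a1, the longest gene with 419527 bp, 52.2%. Col18a1 (chr10:77052178-77166530), whose product releases endostatin, had 42.9% and 43.3% in knockouts, against 83.5% and 88.5% in controls and retained 50.1%. Col15a1, the other multiplexin, retained 52.4%. Col7a1, the anchoring fibril gene of skin, had the highest control mean, with 47.8% and 47.9% in knockouts, against 89.4% and 93.1% in controls. Col26a1, a collagen described from testis and ovary, had 37.2% and 36.2% in knockouts, against 66.6% and 70.4% in controls.

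Retained shares were compared with control levels. Across the 42 bodies, which share the same libraries, the Spearman rho of retained share with control level was -0.46, and across all 15644 bodies it was 0.21. The control level is also the divisor of the retained share, so these measures are not independent. At control levels of 80% or more, the 28 collagen bodies had a median retained share of 51.9%, against 55.9% for the 10732 bodies of that class. Within that class the 5 collagen bodies at 90% or more had 52.4%, against 57.9% for all 4328 such bodies. The 23 at 80% to 90% had 51.5%, against 53.9% for all 6404, so the gap in the whole class also reflects where its bodies lie. At lower control levels the 14 collagen bodies had 53.8%, against 54.8% for 4912 bodies. By length, collagens over 100 kb, 24 genes, had 52.1% against 53.6% for the 2311 genes of that length, and the 14 of 20 to 100 kb had 52.3% against 56.0%. The 4 shorter ones, under 20 kb, had 55.6% against 55.8%. These are descriptions of genes chosen with their values known, and no test was made of them.

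**Figure D2:**
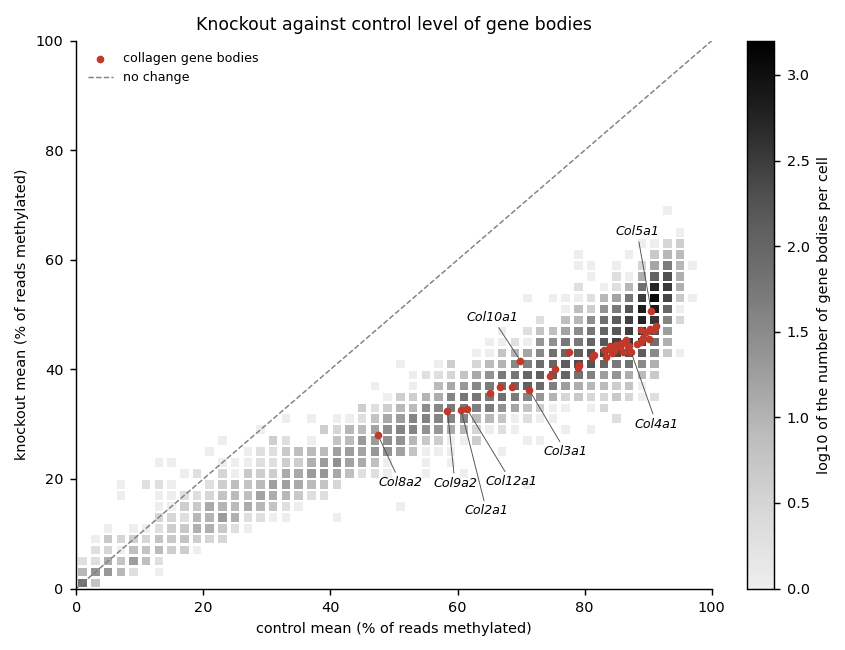
Knockout mean (vertical axis, percent) against control mean (horizontal axis, percent) of gene bodies, with grey cells coloured by the log10 number of the 15644 bodies and red points for the 42 collagens. All collagen points lie below the dashed line of no change and inside the grey cloud, with Col8a2 at the lowest control level, 47.5%.

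The DNA around the collagen genes fell as well. Over the 50 kb that begin 2000 bp outside each gene on both sides, 29 of the 42 bodies retained a smaller share than their own surroundings, by a median of -0.921 points over all 42. The same comparison was not made for all gene bodies, so this count has no background and says nothing particular to collagens. The Spearman rho between body and surroundings was 0.43 over 42 genes. Other genes, neighbouring collagen genes among them, were not left out of the surroundings. Around Col4a1 the surroundings averaged 39.5% in knockouts and 79.3% in controls, a retained share of 49.8%, next to 49.5% in its body. On the side of Col4a2 they lie wholly inside that gene, so they are not separate from the collagen bodies. Around Col8a2 the surroundings averaged 32.4% in knockouts and 54.4% in controls, a share of 59.5%, next to 58.9% in the body.

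Single cytosines within collagen bodies moved to intermediate levels. Of the 58827 cytosines measured, 1.59% and 1.57% were at 80% or more in knockouts, against 71.2% and 82.1% in controls. Between 20% and 80% there were 86.7% and 87.0% in knockouts, against 22.6% and 11.5% in controls. At 20% or less there were 11.7% and 11.4% in knockouts, against 6.23% and 6.45% in controls. In all gene bodies the share at 80% or more was 3.08% in knockouts and 75.1% in controls (means of the samples), and the difference from collagen bodies was not tested.

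Gene ends were defined from 1000 bp outside to 500 bp inside each edge of the gene, and needed 5 CpGs measured. Of the 84 collagen ends, 76 could be tested, 44 were called lower and 0 higher, against 57.5% lower and 0.153% higher among the ends of all genes. No collagen end was higher at an unadjusted limma p under 0.05 either, and 7 had a higher mean in knockouts by less than 1 point. Without the minimum of 10 points, 60 of the 76 ends were lower at the adjusted p, against 23310 of the 34734 ends of all genes. On the spread of each end alone, without sharing variance between ends, 22 were called lower, against 8445 of the 34734. The strand was known for 33 genes, so their ends are called start and far end, and the ends of the other 9 (Col1a1, Col2a1, Col4a3, Col5a2, Col9a3, Col12a1, Col14a1, Col22a1 and Col26a1) left and right.

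Starts fell into separate classes by their control level. Of 33 starts tested, 10 were called lower, against 28.3% of all starts called lower and 0.261% higher. Under 20% in controls were 22 of them (66.7%), against 69.9% of all starts. These 22 had medians of 3.45% in knockouts and 5.38% in controls, and none of them was called. Within this low class, 12 were lower at the adjusted p by differences under 10 points. The share of all starts under 20% that met this was not counted, so the 12 have no background. Col27a1, a minor fibrillar gene, had 3.47% and 3.68% in knockouts, against 7.70% and 8.96% in controls, a difference of -4.76 points (limma adjusted p = 1.51e-05). Col24a1, also fibrillar, had 10.3% and 8.20% in knockouts, against 16.1% and 14.0% in controls, the largest difference of the class at -5.78 points. Col4a1, the start with the most CpGs measured, 127, had 1.07% and 1.04% in knockouts, against 1.00% and 1.13% in controls (limma adjusted p = 0.967).

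Another 9 starts (27.3%, against 19.2% of all starts) were at 80% or more in controls. As with 2790 of the 2791 starts of all genes in that class, all 9 were called lower. Their medians were 37.5% in knockouts and 88.1% in controls, with a retained share of 41.9%, against 51.1% over all starts of that class, a difference that was not tested. The largest loss was at Col6a1 (chr10:76725544-76727044), with 34.0% and 30.1% in knockouts, against 86.7% and 89.2% in controls, a difference of -55.9 points (limma adjusted p = 1.93e-08). Col3a1, with 5 CpGs measured and so at the limit of the filter, had 30.5% and 35.0% in knockouts, against 85.1% and 91.1% in controls. Col6a4 had 31.9% and 32.2% in knockouts, against 85.6% and 87.0% in controls, and Col6a5 had 36.8% and 38.2% in knockouts, against 85.9% and 93.1% in controls. At each of these starts both knockouts lay more than 40 points below both controls.

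The other methylated starts also fell. Col6a3 had 33.7% and 36.7% in knockouts, against 81.2% and 86.7% in controls. Col17a1 had 45.3% and 42.4% in knockouts, against 92.8% and 93.8% in controls. Col28a1 had 37.2% and 46.4% in knockouts, against 81.5% and 92.7% in controls over 5 CpGs. Col10a1 and Col20a1 lost the least among the 9, and both overlap another gene at the start, Nt5dc1 and Arfgap1. Col10a1 had 53.1% and 56.1% in knockouts, against 89.0% and 94.4% in controls, and Col20a1 had 55.2% and 51.6% in knockouts, against 88.5% and 92.8% in controls. On their own spread alone the calls of Col6a5, Col10a1, Col20a1 and Col28a1 ended, with adjusted p between 0.0502 and 0.0851.

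Between these classes stood Col7a1 and Col9a1. At Col7a1 the start had 13.5% and 17.5% in knockouts, against 29.8% and 33.2% in controls, a difference of -16.0 points (limma adjusted p = 3.69e-05). The call ended on its own spread alone, with adjusted p = 0.0664, and with the end drawn 500 bp outside the gene the difference was -8.82 points. At Col9a1, a type IX chain, the start had 23.0% and 19.9% in knockouts, against 25.5% and 22.7% in controls and was not called (limma adjusted p = 0.499). Drawn 500 bp outside, it was called lower, with a difference of -24.6 points. Both calls thus changed with the edge chosen.

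**Figure D3:**
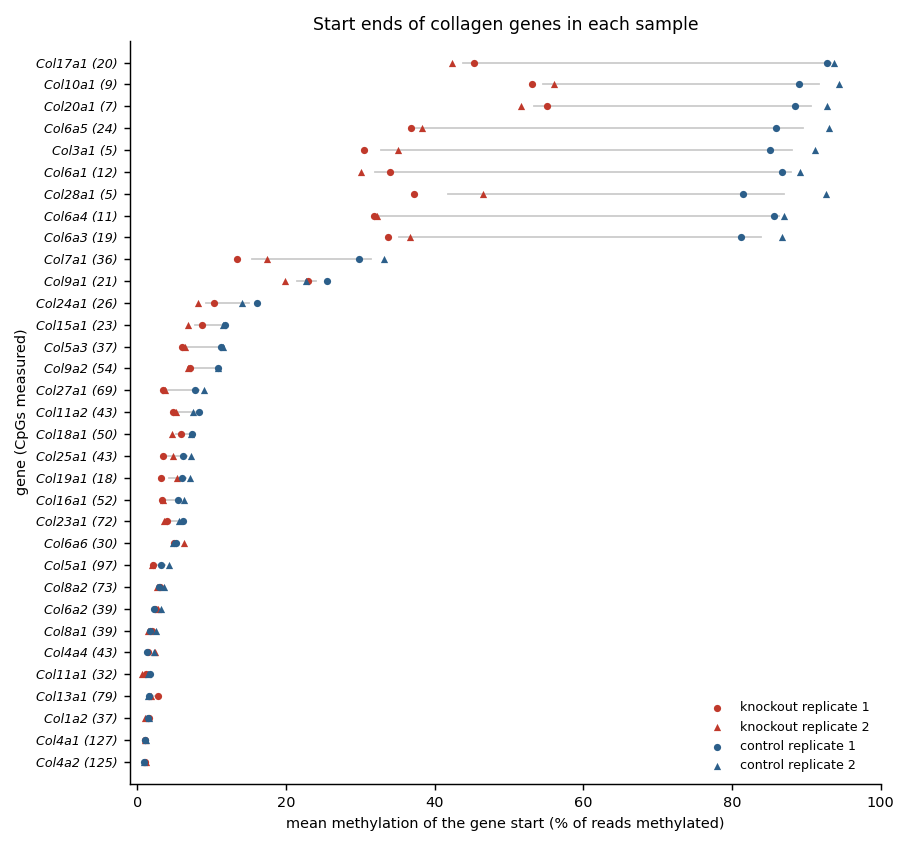
Mean methylation in percent (horizontal axis) of the 33 collagen gene starts, ordered by control level, with the CpGs measured in brackets, knockout replicates in red and control replicates in blue. The 9 starts at 80% or more in controls show knockout means between 32.0% and 54.6%, and the 22 under 20% have knockout means under 10%.

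Profiles in 500-bp steps placed these starts in their setting. At Col4a1 the step that begins at the start had 0.715% and 0.561% in knockouts, against 1.08% and 0.581% in controls, and the low stretch spanned the steps from -1500 to 1000 bp. At Col6a5 the RefSeq start lies inside the gene edge, and its step had 8.06% and 4.80% in knockouts, against 7.23% and 1.71% in controls, while the gene-edge start above is methylated. Col6a1 had low stretches on both sides of a methylated start. In its step at -2500 bp the values were 3.72% and 3.94% in knockouts, against 2.51% and 5.19% in controls. In the step at 2500 bp, inside the gene, Col6a1 had 19.4% and 13.4% in knockouts, against 7.14% and 7.43% in controls.

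**Figure D4:**
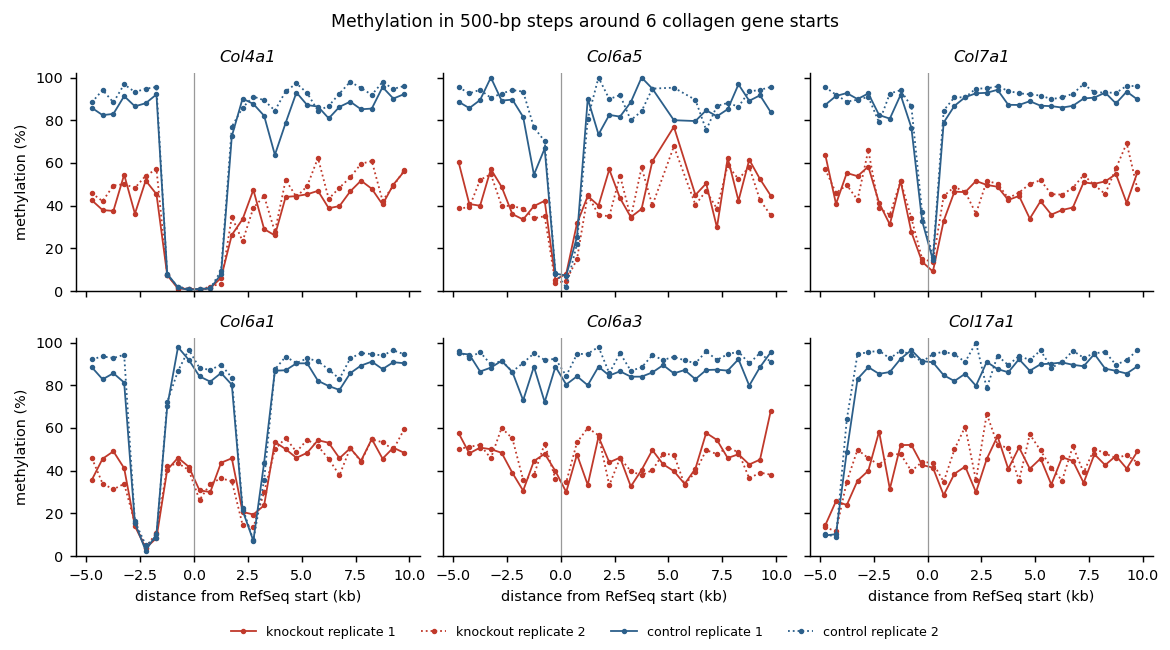
Methylation in percent (vertical axis) in 500-bp steps by distance from the RefSeq start in kb (horizontal axis) for 6 collagen genes, with knockout replicates in red and control replicates in blue. Col4a1, Col6a5 and Col7a1 dip at the start in all samples, Col6a3 has no dip, and Col6a1 and Col17a1 have dips away from the start.

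Far ends were methylated and fell almost throughout. Of 27 tested, 26 were called lower, against 90.2% of all far ends. The 23 at 80% or more in controls retained a median of 52.7%, against 54.5% over all far ends of that class. The exception was Col23a1, whose far end overlaps the gene Phykpl and had 1.18% and 1.89% in knockouts, against 2.21% and 2.48% in controls over 57 CpGs. The far end of Col6a3 had 40.3% and 39.0% in knockouts, against 87.8% and 95.6% in controls and fell by 52.0 points, the largest loss of a far end, with adjusted p = 0.0625 on its own spread alone. Among left and right ends, 4 of 8 and 4 of 8 were called lower, against 57.1% of all left ends and 57.0% of all right ends. The low ones included the left ends of Col14a1, with 1.26% and 1.49% in knockouts, against 0.914% and 1.06% in controls, and Col1a1, with 2.32% and 3.82% in knockouts, against 3.04% and 2.26% in controls, and the right end of Col2a1, with 1.97% and 1.82% in knockouts, against 1.43% and 1.72% in controls. Beside the start of Col13a1, with 2.75% and 1.76% in knockouts, against 1.62% and 1.41% in controls, and that of Col6a6, with 4.92% and 6.20% in knockouts, against 5.16% and 4.72% in controls, these were the 5 ends with the largest gains, and none was called.

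Neighbouring collagen genes shared their start regions or lay apart. Col4a1 and Col4a2 overlap by 85 bp head to head, and their start windows share cytosines, so they are not separate observations. Col4a2 had 0.973% and 1.09% in knockouts, against 0.867% and 0.927% in controls at its start. Col4a3 and Col4a4 overlap by 114 bp where the left end of Col4a3 meets the start of Col4a4, with 1.44% and 2.30% in knockouts, against 1.26% and 2.20% in controls at the start of Col4a4. Both pairs were unmethylated at the shared start and lost methylation across both bodies. Col3a1 and Col5a2 lie 24624 bp apart, and Col9a1 and Col19a1 4944 bp apart.

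Windows of 1 kb with 5 or more CpGs measured were then taken along the genes. The 42 genes held 3283 such windows, 5 in Col10a1 and up to 269 in Col25a1, and 3127 were called lower, against 92.2% of all autosomal windows. All 2817 windows at 80% or more in controls were called lower, as were 892121 of the 892498 autosomal windows of that class. They had a median retained share of 51.6%, against 52.8% for windows of that class across autosomes. In single genes the median over such windows ran between 44.0% in Col11a1 and 56.5% in Col5a1. The largest loss was at Col4a1 (chr8:11257001-11258000), with 24.5% and 34.2% in knockouts, against 88.5% and 94.8% in controls, a difference of -62.3 points. Windows of Col24a1, Col11a1, Col23a1, Col6a3, Col14a1, Col22a1 and Col13a1 made up the rest of the 10 largest losses, together with further ones of Col4a1 and Col23a1, down to -58.01 points in Col23a1. Those of Col24a1 (chr3:145367001-145368000) and Col14a1 (chr15:55437001-55438000) lost their calls on their own spread alone, with adjusted p = 0.0528 and 0.0640.

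Windows of low methylation were spread over most collagen genes. Under 20% in controls were 130 windows in 35 genes. They were 3.96% of the collagen windows, against 5.90% of all autosomal windows. Col19a1 with 19, Col26a1 with 14 and Col12a1 with 12 held 45 of the 130. The Spearman rho between a gene's share of such windows and its body's control level was -0.72 over 42 genes, both coming from the same cytosines. Of the 130 windows, 81 lay at least 5000 bp inside a gene, with medians of 14.9% in knockouts and 11.9% in controls. By sample these medians were 16.4% and 12.1% in knockouts, against 12.1% and 11.4% in controls. Over all 130 windows they were 13.8% and 10.2% in knockouts, against 10.4% and 9.64% in controls. The higher level thus came mainly from knockout replicate 1, and knockout replicate 2 was the higher of the knockouts in 38 of the 130. The mean was higher in knockouts in 77 of all 130 (59.2%), against 52.3% of the low windows of all autosomes, a difference that was not tested. It was higher in 55 of the 81 inside windows, a count without a background, since inside windows of other genes were not counted. Called lower were 2 of the 130, against 448 of the 66925 low windows of all autosomes.

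Against the general loss, 8 collagen windows were called higher in knockouts, all of them under 20% in controls. They make up 6.15% of the 130 low windows. The background is 2.92% of all low windows called higher, and 0.174% of all windows at any level, and the difference was not tested. None of the 8 overlaps another RefSeq gene. The largest gain was in Col11a1 (chr3:114138001-114139000), with 25.8% and 20.7% in knockouts, against 6.09% and 4.07% in controls, 18.1 points higher (limma adjusted p = 1.57e-08, log2 change 2.31 ± 0.34, SE). Col24a1 held 2 of the windows. The first (chr3:145383001-145384000) had 15.4% and 15.6% in knockouts, against 3.80% and 4.53% in controls, and the second (chr3:145459001-145460000) had 15.6% and 19.6% in knockouts, against 6.26% and 6.36% in controls.

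The other higher windows lay in 5 genes. Col19a1 (chr1:24349001-24350000) had 19.2% and 22.6% in knockouts, against 8.67% and 7.19% in controls. Col8a1 (chr16:57628001-57629000) had 20.1% and 14.4% in knockouts, against 5.81% and 4.83% in controls. Col12a1 (chr9:79700001-79701000) had 20.7% and 15.5% in knockouts, against 7.09% and 7.05% in controls. The smallest gains were those of Col26a1 and Col5a2. Col26a1 (chr5:136794001-136795000) had 24.3% and 21.0% in knockouts, against 9.52% and 14.4% in controls, and Col5a2 (chr1:45439001-45440000) had 20.2% and 16.7% in knockouts, against 5.15% and 11.4% in controls. Gains of 9.59 points in the window next to the one of Col8a1 and of 9.22 points in another of Col19a1 stayed under the minimum.

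Of the 8, the Col11a1 window and the first Col24a1 window were called under all 11 alternatives. Without knockout replicate 1 the calls of Col5a2, Col8a1, Col12a1 and Col26a1 ended, without knockout replicate 2 that of the second Col24a1 window, and without control replicate 1 those of Col5a2 and Col26a1. Each sample's own cytosines ended those of Col5a2, Col12a1, Col19a1 and the second Col24a1 window, and each window's own spread those of Col5a2 and Col26a1. These gains went along with higher levels at the germline gene starts, 14.0% in knockouts and 6.33% in controls (medians), where 4 of 10 were called higher, against 0.363% of all starts under 20% and 0.261% of all starts, with starts ranging from 1.63% to 17.4% in knockouts and from 1.89% to 12.4% in controls. Their part in the 8 windows was not tested.

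**Figure D5:**
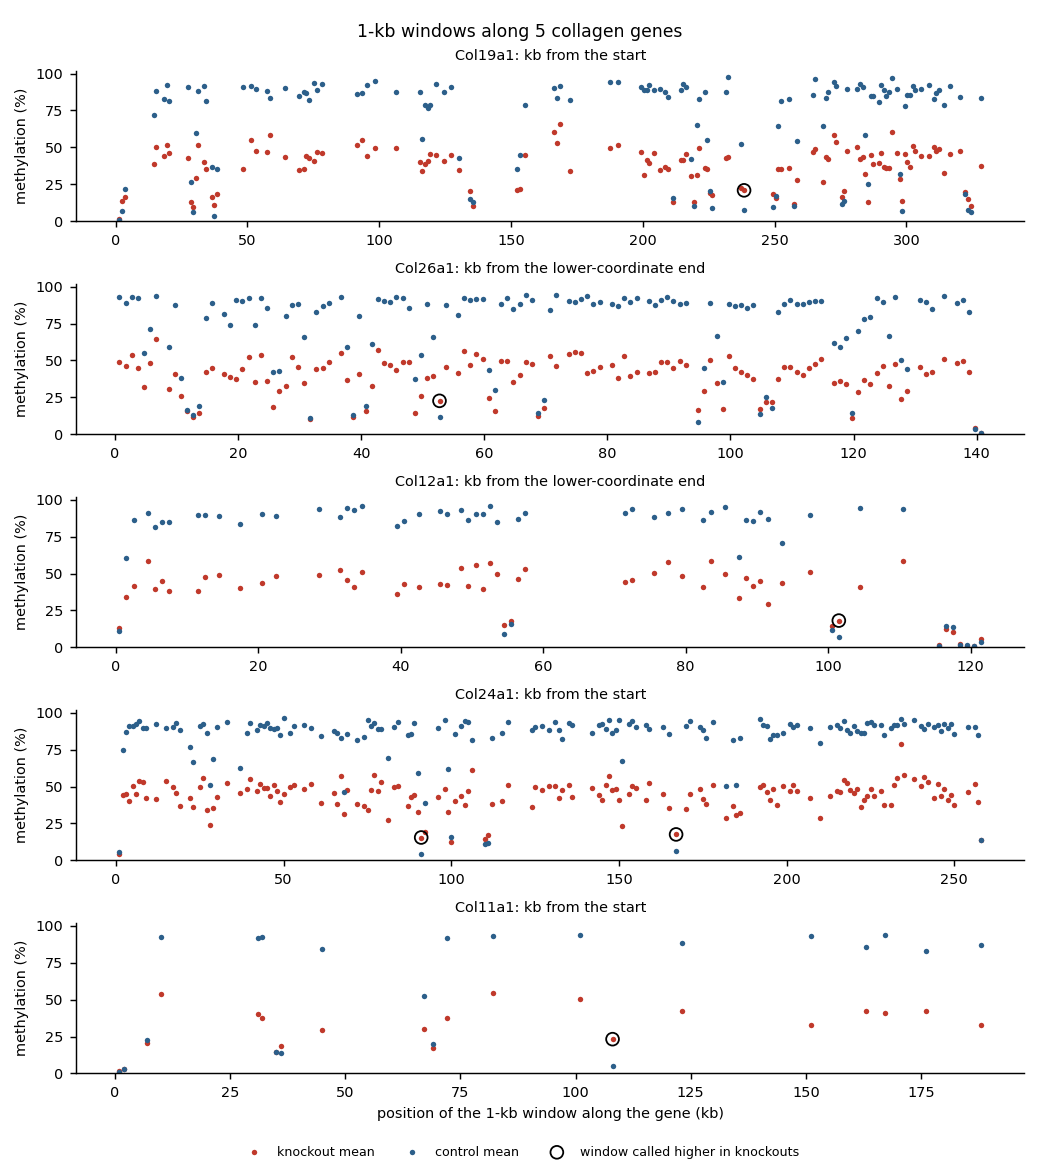
Methylation in percent (vertical axis) of 1-kb windows by position in kb (horizontal axis) along 5 collagen genes, with group means in red for knockouts and blue for controls, and circles around windows called higher in knockouts. Red points lie far below blue ones where controls are at 80% or more, and the circled windows sit where the blue points drop under 20%.

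Genes that modify, export, cross-link, bind or degrade collagen were read in the same fits. Of these 50 genes, 49 had bodies called lower, against 96.9% of all gene bodies, with a median retained share of 54.0%. Bodies called lower numbered 17 of 17 for modification and folding, 11 of 12 for export and processing, 5 of 5 for cross-linking, 10 of 10 for receptors and 6 of 6 for degradation. The exception was Pcolce, an enhancer of procollagen processing, with 13.5% and 13.5% in knockouts, against 16.7% and 16.5% in controls. Mmp13, a collagenase, retained the smallest share, 47.0%, with 33.0% and 37.3% in knockouts, against 72.0% and 77.7% in controls. Colgalt1, a collagen galactosyltransferase, retained the largest share among those called lower, 63.3%, with 56.3% and 54.4% in knockouts, against 85.9% and 88.9% in controls.

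At the starts of the same pathway genes, 9 of 35 were called lower and 0 higher, against 28.3% of all starts lower and 0.261% higher, and 26 were under 20% in controls. By list, 1 of 12 modification starts fell, 3 of 11 of export and processing, 0 of 1 of cross-linking, 2 of 7 of receptors and 3 of 4 of degradation. Serpinh1, the collagen chaperone, had 3.57% and 5.05% in knockouts, against 5.45% and 6.69% in controls. Ctsk, the collagen-degrading protease of osteoclasts, had 29.5% and 33.2% in knockouts, against 80.9% and 80.4% in controls. Itga10, a collagen-binding integrin chain, had 35.7% and 39.7% in knockouts, against 83.6% and 90.9% in controls, while Itgb1, its partner chain, had 0.978% and 1.22% in knockouts, against 0.851% and 1.03% in controls. Ddr2, a collagen receptor kinase, lay between, with 17.1% and 10.2% in knockouts, against 27.3% and 24.1% in controls.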

How the data were processed

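Post-bisulfite adaptor tagging gave whole-genome libraries of 2 knockout and 2 control samples, per the labels' protocols. The table deposited by the authors lists a methylation percent per cytosine and sample, separately for both strands of a CpG, and its name states 10 reads. The build was mm10, per the submitters' processing notes. Which aligner and caller were used is not given in the sources used here. Read depth per value is unknown, so every value weighed the same and precision rests on the number of CpGs and on 2 samples per group.

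Computed here were the means over cytosines with a value in all 4 samples, for trimmed gene bodies, gene ends and 1-kb windows placed with the RefSeq gene table for GRCm38.p6. Levels were tested with limma 3.58.1 (R 4.3.3, trended and robust prior) on log2((m + 0.01)/(1 − m + 0.01)), fitted over all 15644 gene bodies, 34734 ends or 1134523 windows. For bodies the prior was finite in 1.06% of genes, so p-values rest on pooled variance. Median prior degrees of freedom were 34.5 for ends and 64.1 for windows. The fits over bodies and ends, but not the fit over windows, were also run on simulated levels. Losses were planted there in a small part of the regions, unlike the loss in most bodies here. Those runs therefore do not show how the fits behave on these data. Levels were computed in pandas 2.3.3 and drawn with Matplotlib 3.10.9.

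The collagen genes, the pathway and marker lists and the tests were chosen with earlier results of these data known. Genes are named with values by rank: the 5 largest and smallest body losses, the 5 highest and lowest retained shares, the 5 lowest control levels, all starts at 20% or more, the 5 largest end losses and gains, adjacent collagen genes and the 10 largest window gains and losses. Other collagen genes and pathway genes given as examples were chosen after their values were seen. Other offsets, scales, CpG minimums, region edges and cytosine sets, a fit without shared variance, a fit with the replicate number as a block and fits without each sample were tried. A sample left alone in its group was taken to vary as the other group does.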

Additional observations from a re-analysis of the deposited data

How the results depend on the processing

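All 42 collagen bodies kept their call in each of the 14 alternatives in which they could be tested, with Col10a1 missing at a minimum of 30 CpGs. Leaving out a sample gave 42 to 42 bodies lower and 0 to 0 higher, 43 to 45 ends lower and 0 to 0 higher, 3091 to 3117 windows lower and 7 to 12 higher, median body differences of -42.6 to -38.0 points and median retained shares of 50.9% to 53.6%. On each region's own spread, 22 ends in place of 44 were lower. With a minimum of 10 CpGs 1499 windows were lower, of 1628 tested in place of 3283. Windows called higher numbered 24 without a minimum difference and 5 on each sample's own cytosines, in place of 8. Over all genes, 8445 ends in place of 19974 were lower on their own spread, 420346 windows in place of 1045682 with a minimum of 10 CpGs, and 490 windows were higher on their own spread, 5530 without knockout replicate 2 and 10833 without a minimum difference, in place of 1978.

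Of the uncalled ends, with the edge 2000 bp outside, differences turned to -1.02 points at the left end of Col14a1, -19.3 at the left end of Col1a1, -0.0611 at the right end of Col2a1, and -0.668 and -5.61 at the starts of Col13a1 and Col6a6. Leaving out a sample gave -0.331 to 1.17 at the left end of Col1a1 and -0.0150 to 1.26 at the start of Col6a6, both turned without knockout replicate 2, and on each sample's own cytosines it was -0.261 at the left end of Col1a1. The cause was not tested. Same-numbered samples of both groups hardly moved together, with correlations of their deviations of 0.0975 over bodies, 0.0797 over ends and 0.0448 over windows, so the numbers are not taken as pairs. With the replicate block 42 bodies, 44 ends and 3129 windows were lower and 8 windows higher. Depth per cytosine is unknown, which limits what single starts with 5 CpGs can show.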

Other observations

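Genes outside the collagen family whose products hold a collagen-like stretch also had bodies called lower, and their ends were methylated in some and unmethylated in others. They were picked after their values were seen. Colq, which anchors acetylcholinesterase at the neuromuscular junction, had 43.5% and 45.5% in knockouts, against 84.5% and 88.3% in controls in its body. Marco, a macrophage scavenger receptor, had 43.5% and 45.2% in knockouts, against 85.5% and 91.4% in controls. Adipoq, the adiponectin gene of fat cells, had 43.0% and 38.8% in knockouts, against 78.6% and 82.7% in controls. All 3 of these bodies were called lower (limma, Benjamini-Hochberg adjusted), as were 96.9% of all gene bodies.

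Methylated starts that fell included that of Mbl1, a mannose-binding lectin gene, with 36.7% and 31.8% in knockouts, against 84.9% and 91.5% in controls, and Fcna, a ficolin gene, with 51.2% and 50.9% in knockouts, against 91.3% and 94.8% in controls. The start of Emid1 was unmethylated and not called, with 3.72% and 3.65% in knockouts, against 2.62% and 2.94% in controls. That of Gldn, the gliomedin gene, had 2.18% and 3.25% in knockouts, against 3.86% and 4.22% in controls and was not called either.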
